A study of Mus musculus with 6 samples.

Results

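Piezo2 and 4 other mechanosensitive channel genes (Piezo1, Trpv4, Tmem63a and Tmem63b) were followed in RNA sequencing of mouse bone marrow mesenchymal stromal cells (BMSCs, as the samples are labelled) treated with all-trans retinoic acid (RA). They are 5 of the 25722 genes in the count tables, matched by gene name, and all 5 passed the expression filter that left 13842 genes for testing. The group was chosen by a measured value: Piezo2 is 1 of the 6 genes called in RA against control (edgeR adjusted p under 0.05 and at least a 1.5-fold change, 0.0433% of tested genes), and the other 4 were added as its paralog and as channels of related function. The values of RA against control are therefore given here as a description of these libraries and are not offered as evidence of a response.

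PIEZO1 and PIEZO2 are very large membrane proteins that assemble as trimers and pass cations, calcium among them, when the membrane is stretched or indented. PIEZO1 is known from endothelium, red blood cells and bone-forming cells, and PIEZO2 from the touch and stretch-sensing neurons and the Merkel cells of the skin. TRPV4 is a calcium-permeable channel opened by cell swelling, warmth and lipid mediators, well known in cartilage. TMEM63A and TMEM63B are the animal relatives of the plant OSCA channels, which open under osmotic and membrane stress.

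The cells came from wild-type C57BL/6 mice. All 6 cultures, the controls included, were grown at low oxygen in medium with serum with a ROCK inhibitor, a compound that blocks a kinase of actomyosin contraction. There were 3 control libraries that received the solvent DMSO and 3 that received RA, which the labels give as 1 μM for 48 h, while the methods text of the study names a lower dose and a shorter time. The labels speak of 2 biological replicates although 3 libraries a group were deposited, so that the spread between libraries may be partly technical. Library totals ran from 14737636 to 18511905 counts. In a library, 3 counts corresponded to 0.162 to 0.204 CPM, the usual unit of counts scaled to a common library size, here with TMM factors.

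The libraries stood apart in a way that treatment does not describe. The first principal component, with 57.2% of the variance of the most variable genes, put control 2, RA 1 and RA 2 on one side (library set 1) and control 1, control 3 and RA 3 on the other (library set 2). No label names a batch. Values within each set are given beside the pooled ones, although set 1 holds 1 control and set 2 holds 1 RA library. The labelled cell type was checked against markers. The 14 macrophage markers summed to between 20639.8 and 22905 CPM in controls and between 20339 and 21531 CPM after RA, and Adgre1, which encodes the macrophage surface protein F4/80, alone stood between 4463 and 6379 CPM. The 12 mesenchymal stromal markers summed to between 1939.8 and 3786 CPM in controls and between 1453 and 2911 CPM after RA, and 10 of them passed the expression filter, among them Pdgfrb (mean 94.6 CPM) and Eng (45.2 CPM), while the MSC surface genes Thy1 and Nt5e did not. The macrophage markers thus summed to more than the stromal markers in each of the 6 libraries, against the label, and the levels below are those of the whole sample. In such mixed RNA, fewer cells of a type and less RNA per cell cannot be told apart.

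Piezo2 (ENSMUSG00000041482, chromosome 18 of GRCm38 from 63010213 to 63387183) was a low transcript in the control libraries and the only one of the 5 channels with a higher mean after RA. Its counts were 68, 80 and 69 in controls 1 to 3 and 379, 321 and 260 in RA 1 to 3. On the CPM scale these were 4.76, 4.25 and 4.74 in control and 21.1, 20.4 and 17.7 after RA. All RA-treated libraries lay far above all controls, and the coefficient of variation of the controls was 6.28%, although they came from both library sets. The mean was 4.59 ± 0.288 CPM (SD, n = 3) in control and 19.7 ± 1.75 CPM (SD, n = 3) after RA, a ratio of 4.30 and a log2 fold change of 2.10 (standard error 0.16). Within library set 1 the log2 fold change was 2.25 and within set 2 it was 1.87. The size held when any 1 library was left out, between 2.07 and 2.17 on the log2 scale, while the edgeR adjusted p, 0.0243 over all 6 libraries, ran from 0.0291 to 0.335 and stayed under 0.05 only without RA 3. It was 0.167 without RA 1, 0.227 without RA 2, 0.267 without control 1, 0.0691 without control 2 and 0.335 without control 3 (edgeR). With the set added to the model as a covariate, the estimate was 2.08 (edgeR adjusted p = 0.002). With the replicate number as a block, although the numbers did not pair the libraries, it was 2.10 (edgeR adjusted p = 0.113).

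The counts of Piezo2 could be assigned to it without a close copy. Of the 17535 different 50-base stretches in its annotated transcripts, 0 occurred in a transcript of another gene. An unclassified transcript on the opposite strand, AC124391.1, lies in the span of Piezo2 without touching its exons. It held 27, 24 and 27 counts in control and 16, 32 and 25 after RA, with overlapping groups. AC132378.1, unclassified and on the same strand, also lies in that span outside the exons, and no counts were found for it.

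**Figure D1:**
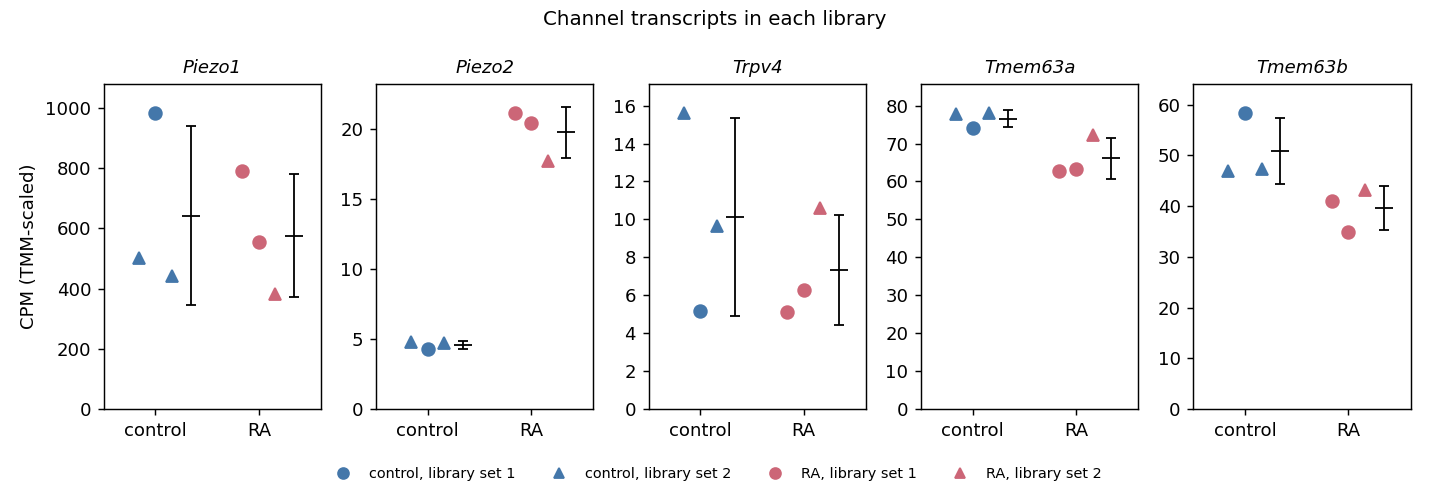
CPM of each channel gene (vertical axis, linear and starting at 0, a separate scale for each gene) in the 3 control and 3 RA libraries; circles are libraries of set 1, triangles of set 2, and the bar beside each group is the mean with its SD. Piezo2 separates by treatment (4.25 to 4.76 CPM against 17.7 to 21.1), Piezo1 and Trpv4 separate by library set, and Tmem63a and Tmem63b are slightly lower in all 3 RA libraries.

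Piezo1 (ENSMUSG00000014444, chromosome 8 of GRCm38 from 122481698 to 122551329), the paralog, was the abundant member. It had 502, 982 and 440.3 CPM in controls 1 to 3 and 789.9, 556 and 382 CPM in RA 1 to 3. The highest and the second highest library belonged to different treatments, and the groups overlapped. The means were 641 ± 297 CPM (SD, n = 3) in control and 576 ± 205 CPM (SD, n = 3) after RA, a log2 difference of -0.16 with a standard error of 0.38 (edgeR adjusted p = 0.924). The pooled value rested on single libraries: without control 2 it was 0.30 and without RA 3 it was 0.07, both of the opposite sign. Within library set 1 it was -0.57 and within set 2 it was -0.30, and with the set as a covariate it was -0.43 (edgeR adjusted p = 0.252), so that Piezo1 had lower values after RA inside each set without passing the test. All 3 libraries of set 1 lay above all 3 of set 2 for Piezo1, as they did for 23.4% of all tested genes.

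A limit of the Piezo1 values is its neighbour Ctu2, which encodes a tRNA thiolation factor and runs on the opposite strand. The annotation lets the exons of the 2 genes share 2441 bases, which is 24.57% of the exonic bases of Piezo1. Ctu2 was given between 224 and 471 counts, against 5595 to 18468 for Piezo1, and how reads in the shared part were assigned is not given in the sources used here.

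The balance of the paralogs was compared inside each library, where library scaling cancels. Per kilobase of exon, there were 0.549, 0.251 and 0.624 Piezo2 for each 100 Piezo1 in controls 1 to 3, and 1.54, 2.12 and 2.69 in RA 1 to 3. All RA-treated libraries were above all controls, a separation that largely restates the choice of Piezo2 on this contrast. The log2 ratio of the raw counts was -7.04 ± 0.71 (SD, n = 3) in control and -4.81 ± 0.40 (SD, n = 3) after RA, a difference of 2.23. Within library set 1 the difference was 2.85 and within set 2 it was 2.2. Piezo1 thus remained the far more abundant paralog per length in each of the 6 libraries, RA-treated ones included.

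**Figure D2:**
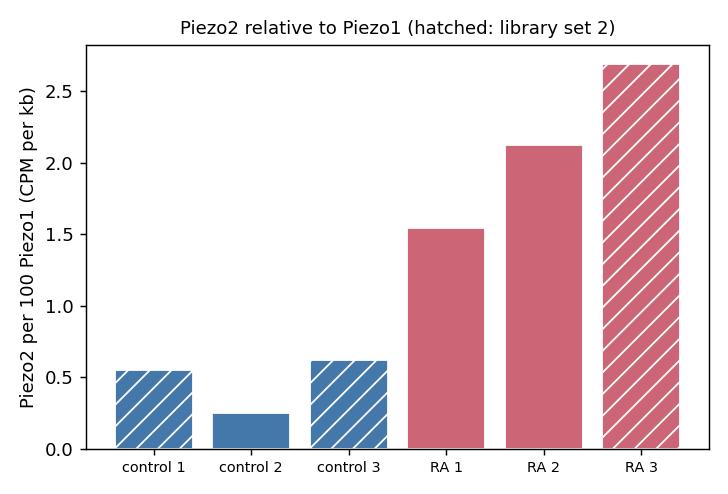
Piezo2 per 100 Piezo1 in each library (vertical axis, ratio of CPM per kilobase of exon, starting at 0); blue bars are controls, red bars are RA, and hatched bars belong to library set 2. The controls lie between 0.251 and 0.624 and the RA libraries between 1.54 and 2.69.

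Trpv4 (ENSMUSG00000014158, chromosome 5 from 114622152 to 114658421) followed the library sets and not the treatment. It had 15.6, 5.16 and 9.63 CPM in controls 1 to 3 and 5.11, 6.28 and 10.6 CPM in RA 1 to 3. The 3 libraries of set 2 were all above the 3 of set 1, with a ratio of set means of 2.17, and 24.4% of all tested genes had that order. Of the 14 macrophage markers, 9 had that order and 3 (Lyz2, Fcgr1 and Cx3cr1) the opposite one, Lyz2 with a mean of 7655 CPM. Trpv4 therefore stood opposite to Piezo1 across the sets. Between RA and control the log2 difference was -0.46 with a standard error of 0.46 (edgeR adjusted p = 0.817), 0.13 within set 1 and -0.20 within set 2, and it ran from -0.83 without RA 3 to -0.01 without control 1 when 1 library was left out, with -0.77 without control 2.

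Tmem63a and Tmem63b varied least over the 6 libraries, with the highest library at 1.24 and 1.68 times the lowest, and both were a little lower in each RA library than in any control. Tmem63a (ENSMUSG00000026519, chromosome 1 from 180942344 to 180975112) had 77.7, 74.1 and 78.0 CPM in control and 62.8, 63.2 and 72.3 CPM after RA. Its estimated log2 difference was -0.21 with a standard error of 0.11 (edgeR adjusted p = 0.795). Tmem63b (ENSMUSG00000036026, chromosome 17 from 45660171 to 45686905) had 46.9, 58.3 and 47.3 CPM in control and 41.0, 34.8 and 43.2 CPM after RA. The estimate here was -0.36 with a standard error of 0.15 on the log2 scale (edgeR adjusted p = 0.795). Neither passed the test over all genes. In 6.86% of tested genes the 3 RA libraries were all lower than the 3 controls and in 5.71% all were higher. Among the 5 channels these counts were 2 and 1, the 1 being Piezo2, which was chosen on this contrast. The differences were smaller within library set 2, -0.11 for Tmem63a and -0.13 for Tmem63b, than within set 1, where they were -0.23 and -0.62. The opposite-strand neighbour 2210411M09Rik shares 3.50% of the exonic bases of Tmem63a and held at most 1 count. For Tmem63b, Gm16172 shares 5.65% and held between 2 and 10 counts. Mrpl14 shares 2.08% of the Tmem63b bases and held between 241 and 454 counts, against 549 to 1097 for Tmem63b itself.

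**Figure D3:**
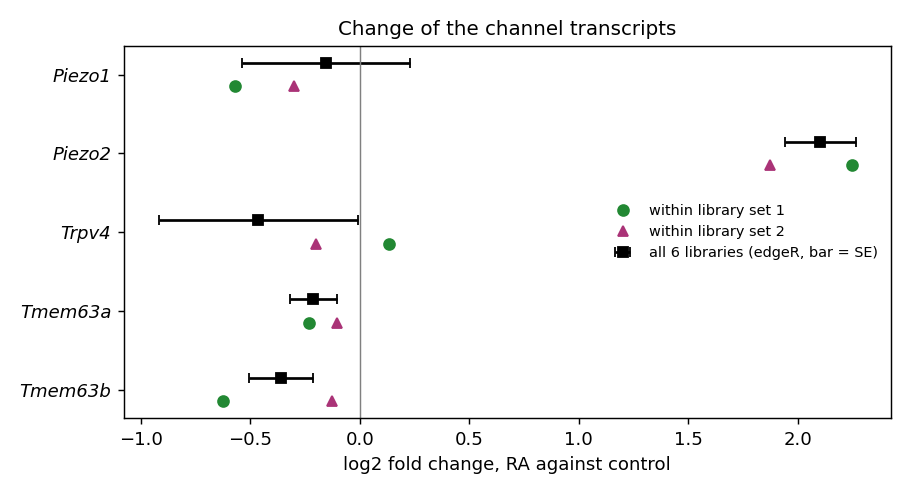
Log2 fold change of RA against control (horizontal axis) for the 5 channel genes; black squares are edgeR estimates over all 6 libraries with their standard errors, green circles the difference within library set 1 and purple triangles that within set 2. Piezo2 stands at 2.10, with 2.25 and 1.87 inside the sets, and the other 4 estimates lie between -0.46 and -0.16.

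Set against each other per kilobase of exon, the channels kept 1 order in all 6 libraries: Piezo1, Tmem63a, Tmem63b, Trpv4, Piezo2. In the control libraries the levels were 64.6 ± 29.9, 17.0 ± 0.482, 9.98 ± 1.27, 2.49 ± 1.29 and 0.267 ± 0.0168 CPM per kilobase (SD, n = 3). After RA they were 57.9 ± 20.6, 14.7 ± 1.20, 7.78 ± 0.853, 1.80 ± 0.715 and 1.15 ± 0.102 CPM per kilobase (SD, n = 3). The gap between the lowest pair closed to less than the spread: in RA 1, Trpv4 stood at 1.25 and Piezo2 at 1.23 CPM per kilobase. Among all tested genes, the mean level per kilobase of Piezo1 lay at the 94.8 percentile and that of Piezo2 at the 16.1 percentile. The exon lengths come from GENCODE M21 and pool the exons of all annotated transcripts of a gene. They were 17.162 kb for Piezo2 and 4.076 kb for Trpv4. The annotation used for counting is not given in the sources used here. On the CPM scale, with no division by length, Piezo2 stood below Trpv4 in each control and above it in each RA library.

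The genes whose log2 CPM followed that of Piezo2 most closely over the 6 libraries, among 13010 other genes with a mean of at least 1 CPM, were Cd38 (Pearson r = 0.996), Cyp26b1 (0.995), Pmaip1 (0.994), Slamf6 (0.994) and Snap91 (0.992). Cd38 encodes an NAD-consuming surface enzyme, Cyp26b1 an enzyme that degrades RA, Pmaip1 the cell death protein NOXA, Slamf6 an immune cell receptor and Snap91 a clathrin adaptor of synapses. Pmaip1 went from 11.8, 11.5 and 12.7 CPM in control to 21, 22.2 and 21.1 CPM after RA. Snap91 went from 0.350, 0.479 and 0.481 CPM to 3.45, 3.49 and 2.66 CPM. With 6 libraries in 2 treatments, such values mostly restate the treatment, and 48 genes had r above 0.95. For Piezo1 the closest were Pcdhga3 (r = 0.999), Gpr176 (0.998), Polr2h (0.998), Ubl4a (0.997) and Dusp1 (0.997), and 354 genes had r above 0.95. Dusp1, a phosphatase that switches off MAP kinases, had 32.8, 84.7 and 30.3 CPM in control and 64.4, 39.7 and 22.7 CPM after RA, highest in control 2 and RA 1 as Piezo1 was.

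Among 28 other channels linked to stretch or swelling, 12 were tested and 0 were called in RA against control by edgeR, by DESeq2 (0.983% of all tested genes) or with the set in the model (1.54%). None had an unadjusted edgeR p under 0.05, where 5.25% of all tested genes had one. Their median log2 fold change was -0.16, beside -0.02 for all tested genes. The 3 with the highest mean CPM were Pkd1, Trpv2 and Trpm7. Pkd1, which encodes the mechanosensory protein polycystin-1, had 252, 304 and 255 CPM in control and 245, 192 and 217 CPM after RA, and it was the 1 tested gene of the list with each RA library under each control (log2 difference -0.31 with a standard error of 0.14, edgeR adjusted p = 0.795). That order held for 6.86% of all tested genes, and 0 of the 12 had the opposite one, which 5.71% of tested genes had. Trpv2, a cation channel of macrophages and other cells, had a log2 fold change of -0.21 (standard error 0.15) and Trpm7, a channel fused to a kinase, one of 0.16 (standard error 0.14). The highest log2 fold change was 0.22, for the large-pore channel Panx1. The lowest, -1.12, was that of Tmem63c, the third TMEM63 gene, with a standard error of 1.41. Tmem63c had 8.96, 0.213 and 5.91 CPM in controls 1 to 3 and 0.334, 0.317 and 6.34 CPM in RA 1 to 3. It was thus near the limit of counting in set 1 and present in set 2, with a ratio of set means of 24.6, in the same order as Trpv4 and opposite to Piezo1. Kcnk2, Kcnk4 and Kcnk10, the stretch-activated potassium channels, were below the expression filter.

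Proteins that bind or tune Piezo channels were also followed. Of 9 genes, 7 were tested, 0 were called by edgeR, by DESeq2 or with the set as a covariate, rules that called 0.0433%, 0.983% and 1.54% of all tested genes. An unadjusted edgeR p under 0.05 was found for 0 of the 7, beside 5.25% of all tested genes. Their log2 fold changes lay between -0.17 (Tmem120a) and 0.09 (Mtmr2), with a median of 0.004. Mdfic, which encodes an auxiliary subunit of Piezo channels, had a log2 fold change of -0.13 (standard error 0.11). Atp2a2, which encodes the calcium pump SERCA2, had one of 0.08 (standard error 0.20), Anxa6, a membrane-binding annexin, one of -0.05 (standard error 0.11), and Stom, a membrane scaffold, one of 0.05 (standard error 0.13). Stoml3, which tunes Piezo2 in sensory neurons, did not pass the filter.

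YAP and TAZ are co-activators that respond to cell shape and tension, and 22 of their target genes stood for signalling downstream of mechanical input. Of the 20 tested, 0 were called by edgeR, 1 by DESeq2 and 3 with the set in the model. These rules called 0.0433%, 0.983% and 1.54% of all tested genes. At an unadjusted edgeR p under 0.05 there were 2, Igfbp3 and Lats2, beside 5.25% of all tested genes, and 13 of the 20 had a lower and 7 a higher estimate after RA, with a median log2 fold change of -0.21. Igfbp3, an IGF carrier, had 1.61, 4.73 and 1.03 CPM in control and 12.2, 10.9 and 8.26 CPM after RA, with no overlap (log2 fold change 2.07, standard error 0.55). Its adjusted p was 0.583 with edgeR, 0.0238 with DESeq2 and 0.0309 with edgeR and the set covariate. Lats2, the kinase that restrains YAP, had 77.1, 94.4 and 71.9 CPM in control and 62.7, 59.5 and 65.4 CPM after RA (log2 difference -0.38 with a standard error of 0.13, edgeR adjusted p = 0.795). The other genes called with the set covariate were Ccn1, a matricellular protein (log2 fold change -0.73, edgeR adjusted p = 0.0219), and Ccdc80, a matrix protein (log2 fold change -0.68, edgeR adjusted p = 0.0148). The 3 with the highest mean CPM were Asap1, Myof and Crim1, at log2 fold changes of -0.21, 0.34 and -0.28, and the lowest estimate was -0.67, for F3, which encodes tissue factor. In 10 of the 20 genes, Ccn1, Ccn2 and Ankrd1 among them, all libraries of set 1 lay above all of set 2, the order seen for Piezo1 and for 23.4% of all tested genes. In 4 (Nuak2, Asap1, Crim1 and Gadd45a) all libraries of set 2 lay above, an order that 24.4% of tested genes had.

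**Figure D4:**
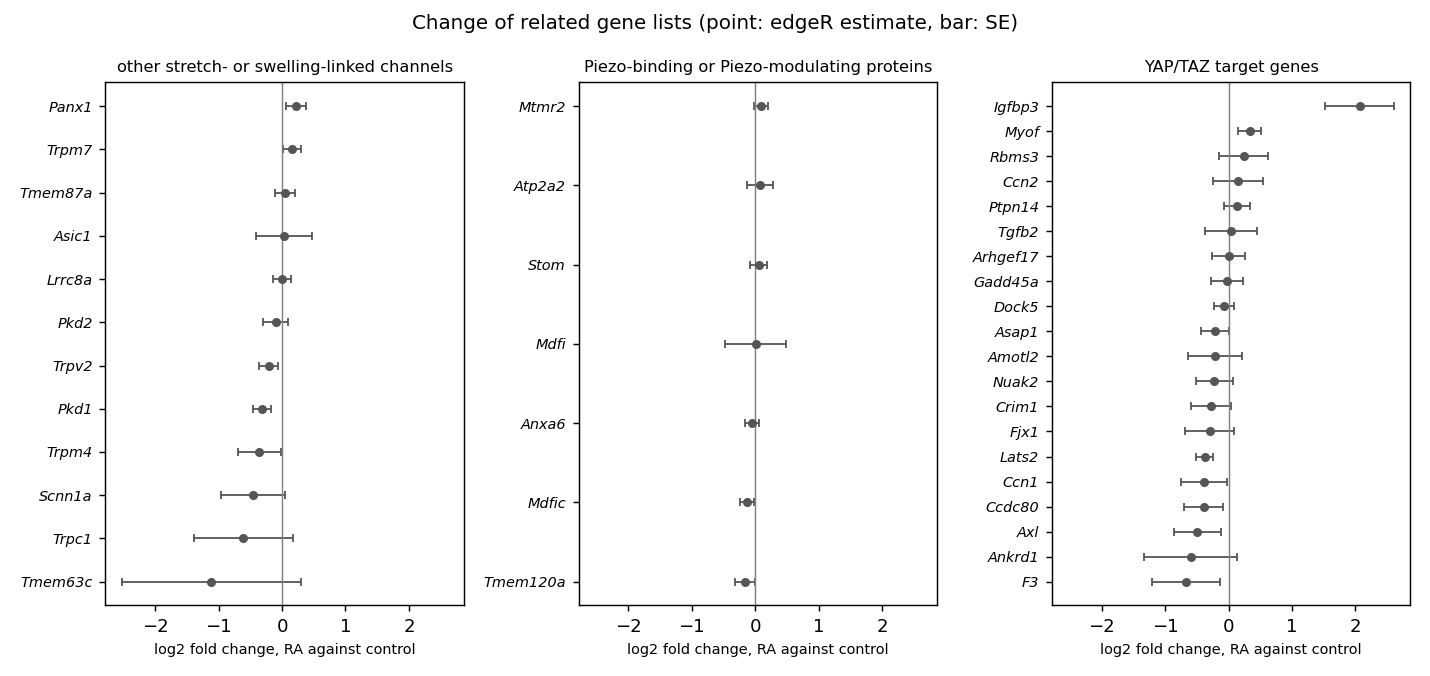
Log2 fold change of RA against control (horizontal axis, edgeR estimate with its standard error) for the tested genes of 3 lists: 12 other stretch- or swelling-linked channels, 7 Piezo-binding or Piezo-modulating proteins and 20 YAP/TAZ target genes. Igfbp3, at 2.07, lies apart, Tmem63c has the widest bar, and no other estimate of the channels and Piezo partners lies beyond -0.61 or 0.22.

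Markers of cell types known for these channels were set beside the values. Of 12 sensory neuron and Schwann cell markers, 10 were in the tables and 2 passed the filter (Tubb3 and Avil). Scn10a, Prph, Calca, Isl1 and Sox10 had at most 3 counts in every library, as had Krt20 and Sox2 of the Merkel cell list, while Krt8, Krt18 and Atoh1 of that list were not analysed here. The neuron and Schwann cell list summed to 10.6, 30.5 and 11.5 CPM in controls 1 to 3 and 16.6, 9.83 and 7.98 CPM in RA 1 to 3, most of it Tubb3. The 8 endothelial markers summed to between 8.24 and 18.3 CPM in control and between 11 and 17.7 CPM after RA, with overlapping groups. The 6 erythroid markers, 5 of which were in the tables, summed to at most 4.97 CPM, most of it Epor. In the neuron and erythroid sums the groups overlapped too. The mesenchymal stromal markers summed to 1939.8, 3786 and 2098 CPM in controls 1 to 3 and 2911, 1893 and 1453 CPM in RA 1 to 3, with control 2 and RA 1 highest and RA 3 lowest, as for Piezo1. In control 2, Col1a1 and Col1a2 gave 1648 and 1390.4 CPM of that sum. Other markers of the list had other orders, such as Pdgfra, highest in RA 2, and Lepr, highest in RA 3. Of the 10 tested stromal markers, 2 had all RA libraries above the controls and 2 had all below, beside 5.71% and 6.86% of all tested genes. By edgeR 0 were called, while DESeq2 and the model with the library set each called 2, Lepr and Ly6a. Over all tested genes these rules called 0.0433%, 0.983% and 1.54%. Lepr, the leptin receptor of marrow stroma, had 0.490, 0.479 and 0.481 CPM in control and 2.50, 3.04 and 9.48 CPM after RA, and Ly6a, which encodes SCA-1, had 34.6, 34.1 and 39.5 CPM in control and 20.3, 19.8 and 17.9 CPM after RA. Their adjusted p was 0.292 and 0.172 with edgeR, 0.000142 and 2.93e-06 with DESeq2, and 0.00644 and 0.0152 with edgeR and the set covariate. The part of cell type composition in the channel values was not tested.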

How the data were processed

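RNA sequencing libraries of 3 DMSO-treated and 3 RA-treated mouse samples labelled as BMSCs were used. The authors deposited raw read counts per gene, 1 file a library. The submitters' processing notes name Bowtie2 2.2.3 and the mm10 genome (GRCm38). The counting program, its annotation and its use of strand are not given in the sources used here. Counts of genes that overlap on opposite strands may thus not be separable. All 25722 gene IDs were found in GENCODE M21, which gave coordinates and exon lengths, and 24 date-like gene names were replaced from it.

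Counts were analysed in R 4.3.3 with edgeR 4.0.16 (TMM factors, filterByExpr, quasi-likelihood F test, treatment as the only term, Benjamini-Hochberg adjustment). A gene was called at an adjusted p under 0.05 and at least 1.5-fold. CPM use TMM-scaled library sizes. The same 13842 genes were tested with DESeq2 1.42.0. Other alternatives were library size or upper quartile scaling, other filters, the replicate number as a block, the library set as a covariate, values within sets and leaving out each library. The fits were tested on simulated data. The library sets were defined from these data, as the sides of the first principal component of log2 CPM, and a covariate of that kind can take up treatment effects or leave too small p-values.

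The 5 channels, the gene lists and the library sets were chosen with earlier results of these data known. Named genes were the channels, genes that share their exons or lie within Piezo2, and the 5 genes most correlated with Piezo2 and with Piezo1. From each list the called genes, the 3 with the highest mean CPM and those with the lowest and highest log2 fold change were named. Other list genes and all markers were named after their values were seen.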

Additional observations from a re-analysis of the deposited data

How the results depend on the processing

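The Piezo2 difference of RA against control (log2 2.10) kept its direction under all alternatives run and its call under library size and upper quartile scaling, both other filters, DESeq2 and the set covariate. It was 2.25 and 1.87 within library sets 1 and 2. Leaving out 1 library gave 2.07 to 2.17, with the call lost in 5 of 6 cases, where fewer samples were fitted. Piezo1 changed sign when 1 library was left out: it ranged from -0.43 to 0.30, with 0.30 without control 2 and 0.07 without RA 3. Within sets, Tmem63a was -0.11 in set 2, and Tmem63b was -0.62 in set 1 and -0.13 in set 2. The log2 ratio of Piezo2 to Piezo1 was 2.85 within set 1 and 1.82 to 2.48 with 1 library left out. The number of called genes, 6, was 20 with no filter, 213 with the set covariate, 136 with DESeq2 and 0 to 6 with 1 library left out (0 without control 1, 2 without control 2, and 1 each without control 3, RA 1 or RA 2). In the YAP/TAZ list, 0 called genes became 3 with the set covariate and 1 with DESeq2, and the cause was not tested. The replicate numbers did not pair the libraries: deviations of same-numbered libraries correlated at -0.51, 0.34 and 0.57. A model with a replicate block called 4 genes and put Piezo2 at 2.10 (edgeR adjusted p = 0.113), which is above 0.05, so that it was not called. The all-gene median of the log2 differences went from -0.02 to at most 0.03 with other scaling. Low counts limit Piezo2 in control (68 to 80 counts) and Trpv4 (92 to 223).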
